A study of Rattus norvegicus with 4 samples.

Results

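The genes described here belong to the response to transforming growth factor beta (TGF-beta) and bone morphogenetic proteins (BMPs) in a rat kidney model of donation after cardiac death. They are the ligands Tgfb1 and Bmp7, the inhibitors Bambi, Smad6 and Smad7, the target genes Id1, Id2 and Id3, and the matricellular genes Ccn1 and Ccn2. They were chosen by symbol, and where several probe sets of the array named a gene, that with the highest average of its 4 values stood for it. All 10 genes were found, with 16 probe sets, among 14217 genes named on the array.

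Kidneys came from male Wistar rats of 300 to 480 g. In every group the left kidney had 29 min of warm ischaemia in the body, was flushed, and was then perfused by machine with University of Wisconsin solution, a fluid for organ preservation, in the cold for 3 h, so no array shows a kidney without ischaemia. The heparin and PPS groups had low molecular weight heparin, a sulfated glycosaminoglycan, or PPS, which the labels give only as an abbreviation, at 10 IU/ml in the cold perfusate and in the warm perfusate that followed. Their warm perfusion and that of the unsupplemented warm group was 30 min of an oxygenated salt solution, modified Krebs-Henseleit buffer, to imitate reperfusion, and the cold group had none. Each group is 1 array of RNA from 3 kidneys, mixed in equal amounts, so the spread between kidneys is not seen and no difference below has a p-value.

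TGF-beta and BMPs bind pairs of serine/threonine kinase receptors, which phosphorylate Smad proteins that enter the nucleus and act on target genes. BMP signals act mainly through Smad1 and Smad5 and switch on the Id genes, while the inhibitory Smads and Bambi are themselves induced and dampen the signal. Ccn1 and Ccn2 are secreted proteins of the matrix that respond within minutes to hours to growth factors, stretch and flow, through the transcription factors SRF and YAP with TEAD, and Ccn2 also to TGF-beta. In the kidney, Bmp7 is known as a product of the collecting duct, distal tubule and podocytes that is lost after ischaemic injury, and TGF-beta and Ccn2 are known for their part in fibrosis.

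Values are log2 expression, so a difference of 1 is 2-fold, and a gene counts below as higher or lower when it passed that limit. Values under a floor of 4.51, the 50th percentile of all values, were raised to it. All 10 genes were above the floor on all 4 arrays, and 9393 genes were above it on at least 1. Over the genes above the floor on every array, the SD of the log2 differences was 0.46 between the warm and cold arrays, 0.31 between each supplemented array and the warm one, and 0.23 between the supplemented arrays.

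Poly-A control transcripts, spiked into the RNA before labelling, had less signal on the cold array than on the others. All 24 of their probe sets were below their warm value on the cold array, with a median warm minus cold difference of 1.25. Scaling the arrays to them moved the warm minus cold median over all genes to -1.27. The difference between 3' and 5' probe sets for beta-actin, a measure of RNA quality, was 3.39 on the heparin, 3.19 on the PPS, 3.22 on the warm and 2.79 on the cold array. For Gapdh it was 0.72 on the heparin, 0.81 on the PPS, 0.84 on the warm and 0.60 on the cold array. The part of labelling and RNA quality in the differences from the cold array was not tested. Markers of the labelled tissue were present: 10 of 10 proximal tubule markers, 7 of 8 named thick ascending limb and distal tubule markers, and 5 of 5 named podocyte markers were above the floor.

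**Figure D1:**
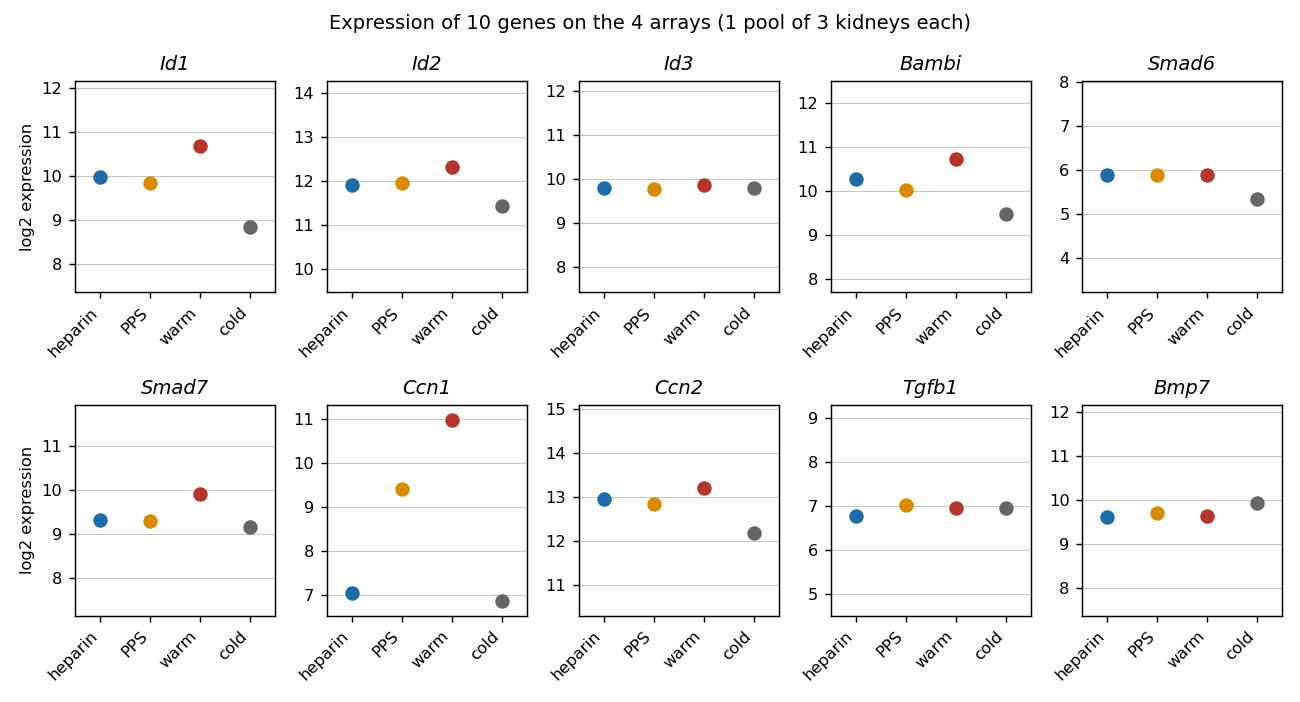
Each panel plots log2 expression of a gene on the heparin, PPS, warm and cold arrays, 1 point per array of 3 pooled kidneys; every vertical axis spans the same number of log2 units, centred on the gene. Ccn1 lies at 7.06 on the heparin and 6.87 on the cold array but at 10.99 on the warm array, while Id3, Tgfb1 and Bmp7 each span at most 0.31 over the 4 arrays.

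The comparison of the warm with the cold array asks what reperfusion with warm oxygenated buffer adds to cold storage by machine. Of the 10 genes, 4 were higher on the warm array and 0 were lower: Ccn1, Id1, Bambi and Ccn2. Over all genes, 2.48% were higher and 1.16% lower by this size. The median difference of the 10 genes was 0.81, against -0.0032 over all 9393 genes. It depended on the probe set: with the mean of all probe sets of a gene it was 0.49, against -0.02 over all genes. With the second probe set, where a gene has several, it was 0.04, also against -0.02. In that setting the floor fixed Smad6 and Smad7 at 0.00, so Id2 was the gene that could respond. Under poly-A scaling the counts were 1 higher and 3 lower, where 0.671% of all genes were higher and 79.3% lower. The median of the 10 genes stood 0.81 above the shifted median of all genes. This scaling moves all values of an array alike, so it could hardly change that gap.

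Ccn1, which encodes a matricellular protein and is an early-response gene, had a log2 value of 7.06 on the heparin array, 9.42 on the PPS array, 10.99 on the warm array and 6.87 on the cold array. In the deposited values the heparin array was close to the cold array, 0.19 above it, the PPS array lay between, and the warm array was highest; under poly-A scaling heparin minus cold was -1.17, where the median of all genes was -1.35. Warm minus cold was 4.12, a 17.4-fold difference, and 22 of 9393 genes had a larger one. Ccn2, encoding the related connective tissue growth factor, had 12.95 on the heparin, 12.84 on the PPS, 13.20 on the warm and 12.18 on the cold array. All 3 warm-perfused arrays were above the cold array, and the supplemented arrays lay nearer to the warm one. Its warm minus cold difference of 1.02 was just past the limit, at 0.98 just below it after each array was centred on the median of its gene probe sets, and at -0.25 under poly-A scaling.

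The pair is shown with its promoters because the genes share a family and a class of binding site but not their values with heparin. The sequences are the 250 bases before the start of each gene in RefSeq on the rat assembly GRCr8, read 5′ to 3′ along the gene, at chr2:237225690-237225939 (minus strand) for Ccn1 and chr1:22624615-22624864 (minus strand) for Ccn2. Capitals mark the MCAT letters CATTCC, or GGAATG on the other strand, the core recognised by TEAD factors.
Ccn1: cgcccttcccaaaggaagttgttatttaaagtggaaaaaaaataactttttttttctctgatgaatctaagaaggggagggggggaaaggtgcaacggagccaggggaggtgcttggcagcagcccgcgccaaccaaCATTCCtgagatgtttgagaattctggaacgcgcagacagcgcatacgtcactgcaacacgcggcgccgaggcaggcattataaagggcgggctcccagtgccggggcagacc
Ccn2: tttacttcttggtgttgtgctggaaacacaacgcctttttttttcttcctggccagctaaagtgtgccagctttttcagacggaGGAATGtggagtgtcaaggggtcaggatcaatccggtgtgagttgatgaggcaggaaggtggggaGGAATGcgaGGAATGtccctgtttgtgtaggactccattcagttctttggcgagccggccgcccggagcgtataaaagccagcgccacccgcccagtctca

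Ccn2 held 3 MCAT matches, with first bases at -166, -101 and -92 from the start, and Ccn1 held 1, at -113. Of 27457 rat promoters of the same length, 11.8% held at least 1 match on either strand and 0.091% held 3 or more. The Smad box letters CAGAC or GTCTG were found at -174 in Ccn2 and at -80 and -6 in Ccn1, against 42.8% of promoters with at least 1. The cyclic AMP response half-site, CGTCA or TGACG, stood at -67 in Ccn1, was not in the Ccn2 window, and occurred in 19.0% of promoters. No match of either gene to the AP-1 letters TGANTCA was found in these windows, and 6.36% of promoters held them. None of these motif counts is a measurement of binding.

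Id1, Id2 and Id3 encode helix-loop-helix proteins without a DNA-binding region, which hold back differentiation factors of the same class. Id1 had 9.97 on the heparin array, 9.84 on the PPS array, 10.67 on the warm array and 8.83 on the cold array. The cold array was lowest and the warm array highest, and the supplemented arrays lay between. Warm minus cold was 1.84, or 3.57-fold, and 79 of 9393 genes had a larger difference; under poly-A scaling it was 0.57. Id2 had 11.91 on the heparin, 11.94 on the PPS, 12.30 on the warm and 11.43 on the cold array, again highest on the warm and lowest on the cold array, but with a warm minus cold difference of 0.88, within the limit. The other Id2 probe set did not show that difference, with 11.24 on the heparin, 11.31 on the PPS, 11.14 on the warm and 11.13 on the cold array. The difference in Id2 is thus seen with 1 of its 2 probe sets. Id3 varied least of the Id genes, with 9.80 on the heparin, 9.77 on the PPS, 9.86 on the warm and 9.79 on the cold array.

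Among the inhibitors, Bambi encodes a decoy receptor that lacks the kinase domain and blocks signalling by TGF-beta and BMP receptors. It had 10.28 on the heparin array, 10.04 on the PPS array, 10.73 on the warm array and 9.48 on the cold array. All 3 warm-perfused arrays were above the cold array, with warm minus cold at 1.25 or 2.38-fold, a difference that was -0.02 under poly-A scaling. Smad7, which blocks receptors of both branches, had 9.31 on the heparin, 9.29 on the PPS, 9.90 on the warm and 9.15 on the cold array. Here the supplemented arrays were close to the cold array, and warm minus cold was 0.75, within the limit. The other 2 probe sets of Smad7 were below the floor on all arrays.

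Smad6, which acts mainly on BMP receptors, had 5.89 on the heparin, PPS and warm arrays and 5.35 on the cold array. It is measured near the floor, and its heparin and PPS values were equal to 6 decimals. At least 2 of the 4 arrays had equal values for 42.9% of the 1270 probe sets with a mean between 4.5 and 6. The other 3 Smad6 probe sets were below the floor throughout, so its warm minus cold difference of 0.54 is a poorly resolved value.

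The promoter of Bambi is shown because it was the inhibitor past the limit and holds a GC-rich BMP-Smad sequence. It is the 250 bases before the start in RefSeq, GRCr8 chr17:58821004-58821253 (minus strand), read 5′ to 3′ along the gene, with GGCGCC, which reads the same on both strands, in capitals.
Bambi: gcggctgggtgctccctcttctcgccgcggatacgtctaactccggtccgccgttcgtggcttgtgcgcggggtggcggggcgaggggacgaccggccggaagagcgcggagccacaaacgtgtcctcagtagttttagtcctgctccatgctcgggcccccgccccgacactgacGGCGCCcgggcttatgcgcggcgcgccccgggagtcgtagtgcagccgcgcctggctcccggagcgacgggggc

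The match in Bambi began at -74, and 9.24% of promoters held at least 1. It overlaps a cyclic AMP half-site match at -78. Promoters of 8 of the 10 genes were found by symbol. GGCGCC occurred at -51 in Ccn1 and at -96 and -36 in Smad7. It was not in the windows of Id1, Id2, Id3, Ccn2 and Tgfb1. Id1 and Id2 held none of the 5 motifs in these 250 bases, and sequence further from the start was not searched.

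In the deposited values the ligands did not differ by the size limit between any of the arrays. Tgfb1, the ligand that acts through Smad2 and Smad3, had 6.77 on the heparin array, 7.02 on the PPS array, 6.95 on the warm array and 6.95 on the cold array. Its warm and cold values were equal to 6 decimals, as 2 or more values were for 23.1% of the 2895 probe sets with a mean between 6 and 8. Bmp7, the ligand of the renal epithelium, had 9.62 on the heparin, 9.72 on the PPS, 9.64 on the warm and 9.93 on the cold array. The cold array was highest, with warm minus cold at -0.29, while 1368 of 9393 genes had a lower difference. Bmp7 was alone among the 10 genes below 0 in this comparison in the deposited values, but 8 of the 10 were below 0 under poly-A scaling and 3 under hybridisation control scaling. Under poly-A scaling both ligands were past the limit against the cold array: Bmp7 at -1.67 with heparin, -1.39 with PPS and -1.56 on the warm array, and Tgfb1 at -1.54 with heparin, -1.11 with PPS and -1.27 on the warm array. The medians of all genes were then -1.35 with heparin, -1.18 with PPS and -1.27 on the warm array.

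**Figure D2:**
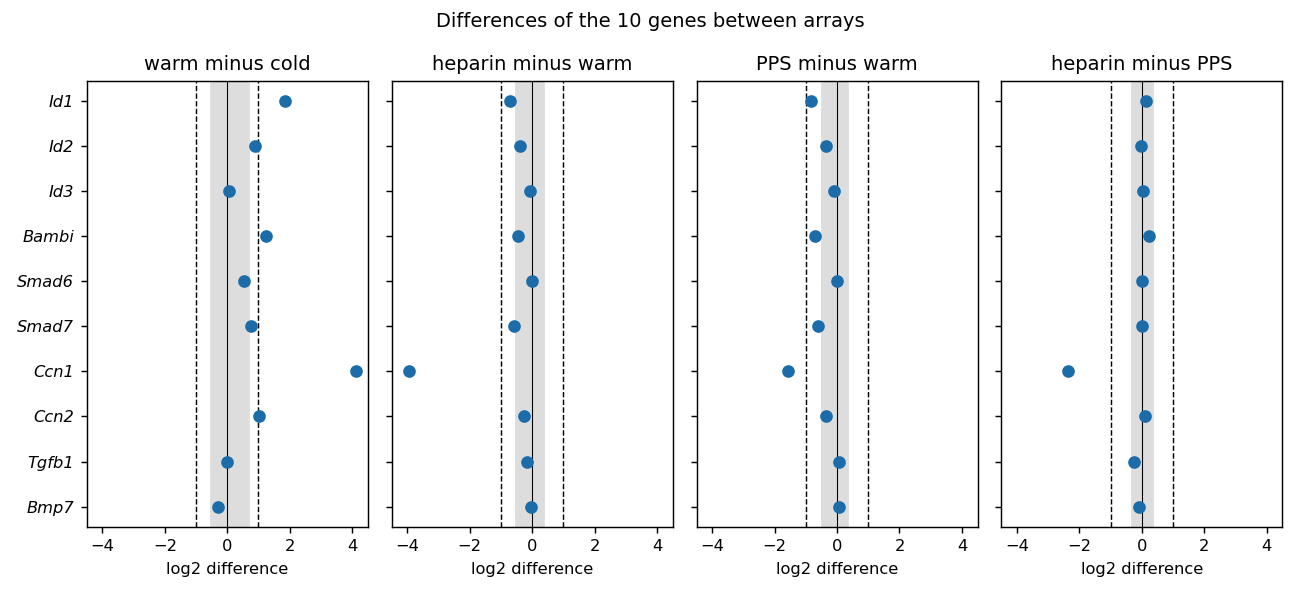
Points are log2 differences of the 10 genes in 4 comparisons of single arrays, dashed lines mark 2-fold, and the grey band runs from the 5th to the 95th percentile of all 9393 genes. Ccn1 lies outside the lines in all 4 panels, at 4.12, -3.93, -1.57 and -2.36; Id1, Bambi and Ccn2 lie outside them in warm minus cold only, where poly-A scaling turns Bambi and Ccn2 to -0.02 and -0.25.

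Against the same cold array, Id1 was the gene past the limit on the heparin array and Id1 and Ccn1 were those past it on the PPS array. With heparin 1.17% of all genes were higher and 0.916% lower by this size, and with PPS 1.03% were higher and 0.788% lower. Id1 differed by 1.14 with heparin and by 1.01 with PPS, which became -0.21 and -0.17 under poly-A scaling. Ccn1 differed by 0.19 with heparin and by 2.55 with PPS. Bambi, at 0.79 with heparin and 0.56 with PPS, and Ccn2, at 0.77 with heparin and 0.66 with PPS, were within the limit. Under poly-A scaling, 0 of the 10 were higher and 5 lower with heparin, where 86.3% of all genes were lower, and 1 was higher and 4 lower with PPS, where 76.7% of all genes were lower. The 3 comparisons with the cold array share it, so they do not support each other.

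The comparisons of heparin and of PPS with the warm array ask what each supplement changes in the perfused kidney. Ccn1 was the gene past the limit in each, and the other 9 stayed within it. In heparin minus warm, all 10 genes were below 0, with a median of -0.32, though Smad6 was at -0.0028 and Bmp7 at -0.02. With the mean of all probe sets of a gene 9 were below 0, with a median of -0.21. With the second probe set, where a gene has several, 7 were, with a median of -0.12. There the floor fixed Smad6 and Smad7 at 0.00, and Id2 was at 0.10. When scaled to the hybridisation controls, transcripts added after labelling, 5 were below 0, with a median of -0.04. That scaling moved the median of all genes by 0.28. Of all genes 1.48% were lower and 0.383% higher by the size limit, and the median was 0.00. Ccn1 was 15.2-fold lower with heparin, a log2 difference of -3.93, and 1 gene of 9393 had a lower value. The next in size were Id1 at -0.69, Smad7 at -0.59 and Bambi at -0.45. Ccn2 differed by -0.25.

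In PPS minus warm, 8 of the 10 genes were below 0, with a median of -0.36. With the mean of all probe sets of a gene 7 were, with a median of -0.23, and with the second probe set 5, with -0.05. In the latter the floor again fixed Smad6 and Smad7 at 0.00, and Id2 was at 0.17. Of all genes 1.71% were lower and 0.511% higher by the size limit. Ccn1 was 2.96-fold lower, a log2 difference of -1.57, and 64 genes had a lower value. Id1 differed by -0.83, Bambi by -0.69 and Smad7 by -0.61. Scaled to the hybridisation controls, which moved the median of all genes by -0.18, Id1 was past the limit at -1.01. Tgfb1 and Bmp7 were the genes above 0, at 0.07 and 0.08. Both comparisons use the same warm array.

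Between the supplements, Ccn1 alone of the 10 genes passed the limit. It was 5.14-fold lower with heparin than with PPS, a log2 difference of -2.36, where 0.298% of all genes were lower and 0.192% higher by the size limit. Only 4 of 9393 genes had a lower value. The other 9 genes lay between -0.25 for Tgfb1 and 0.24 for Bambi.

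That difference ran against most other genes far higher on the warm than on the cold array, a set picked with its values in view. There were 41 genes with a warm minus cold difference of 3 or more, and 37 of these had a heparin minus PPS difference above 0, 5 of them past the limit. Their median heparin minus PPS difference was 0.69, and the quartiles were 0.46 and 0.82. Ccn1 was the lowest of the 41, and 1 of them, Ccn1 itself, was lower by the size limit; the next lowest was at -0.19. In PPS minus cold, Ccn1 at 2.55 stood above the median of the set, which was 2.03, whereas in heparin minus cold it stood at 0.19 against a median of 2.78. Of the 41 genes, 28 were above the floor on all 4 arrays, a subset taken after its values were seen. Of these 28, 26 had a heparin minus PPS difference above 0, with a median of 0.67, and against the cold array their median was 2.77 with heparin and 2.08 with PPS. A single probe set carries all Ccn1 values, so no other probe set of the gene bears on the heparin value. Heparin and the particular kidneys of its pool cannot be told apart.

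**Figure D3:**
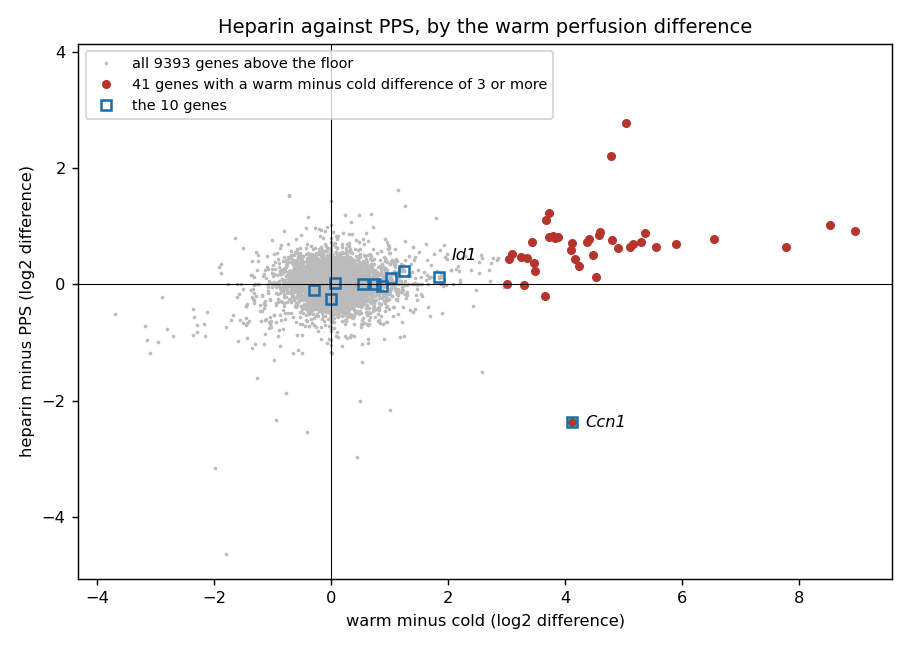
Each point is a gene, with its warm minus cold log2 difference on the horizontal and its heparin minus PPS log2 difference on the vertical axis, which share no array; red points are the 41 genes with a warm minus cold difference of 3 or more and blue squares the 10 genes. Ccn1 lies at 4.12 and -2.36, below the other red points, which reach down to -0.19.

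The genes past the limit in any comparison were set against the 9166 genes above the floor on every array. Likeness was the Euclidean distance between the 4 log2 values, each gene centred on its own mean. For Id1 the nearest were Klf10, at a distance of 0.04, Sowahc at 0.08 and Ddit4 at 0.10. Klf10 had 9.74 on the heparin, 9.62 on the PPS, 10.47 on the warm and 8.64 on the cold array. For Bambi they were Sox7 at 0.02, En2 at 0.07 and Otud1 at 0.09, and for Ccn2 Arhgap6 at 0.06, Sim2 at 0.06 and Kcnip4 at 0.09. Ccn1 had no near match by this distance: Irf1 was closest at 1.91, followed by Cd83 at 2.02 and Pdk4 at 2.03. The distance is not scaled to a gene's range over the arrays, so a gene with a wide range tends to have larger ones. That range was 4.12 for Ccn1, 1.84 for Id1, 1.25 for Bambi and 1.02 for Ccn2. Irf1 had 9.03 on the heparin, 8.80 on the PPS, 11.08 on the warm and 7.59 on the cold array, without the gap between the supplements seen in Ccn1. Likeness over 4 arrays is a description only.

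Further genes of the pathway were read from 6 lists of 94 genes, of which 57 were above the floor on at least 1 array. Their median was 0.10 in warm minus cold, with 6 genes higher and 2 lower, against 2.48% and 1.16% of all genes. Relative to the warm array it was -0.03 with heparin, where 0 were higher and 4 lower, against 0.383% and 1.48% of all genes. With PPS it was -0.02, where 1 was higher and 3 lower, against 0.511% and 1.71% of all genes. Of 5 other ligands above the floor, 1 was higher on the warm array: Gdf15, a stress-induced member of the family, had 5.99 on the warm array and was below the floor on the other 3, a warm value at least 2.79-fold above any of them. Bmp4, a BMP chosen for mention after its values were seen, had a warm minus cold difference of 0.15.

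Of 9 receptors, 0 differed by the size limit between warm and cold or between heparin and warm, with medians of -0.04 and 0.05. Between PPS and warm 1 did: Acvr1c, a receptor for Nodal and activins, with 5.68 on the PPS array and below the floor on the warm array. Of 10 Smads, Smurf ubiquitin ligases and corepressors, 0 passed the limit in these comparisons, and their median in warm minus cold was 0.07. The largest of their warm minus cold differences was 0.79, in the corepressor Tgif1, named after its values were seen.

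Of 11 extracellular antagonists and latent TGF-beta binding proteins, 1 was lower in warm minus cold. It was Ltbp4, which tethers latent TGF-beta to elastic fibres, with 8.46 on the heparin, 8.87 on the PPS, 8.50 on the warm and 9.66 on the cold array. Nbl1, a secreted BMP antagonist, was lower with heparin, with 7.72 on the heparin array and 8.88 on the warm array. Its value on the cold array was 7.97.

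Of 10 other genes reported as targets of TGF-beta or BMPs, 4 were higher on the warm array. Klf10, a transcription factor first described as induced by TGF-beta, differed by 1.83, Hes1, a repressor best known from Notch signalling, by 1.21, the AP-1 subunit Junb by 4.10, and Gadd45b, a stress-induced gene, by 6.53. These 4 are also induced by many other stimuli. The median of the 10 was 0.30, before the shift of -1.27 that all genes undergo under poly-A scaling. With heparin 2 of the 10, Junb at -1.38 and Gadd45b at -1.99, were lower than on the warm array, and with PPS they stood at -1.98 and -2.77. In these genes the values with heparin were above those with PPS, unlike in Ccn1.

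Of 12 other Ccn genes and reported YAP or SRF targets above the floor, 1 was higher and 1 lower on the warm array. The list also holds the regulators Srf, Tead1 and Wwtr1. Srf, the transcription factor itself, had 9.43 on the heparin, 9.26 on the PPS, 10.13 on the warm and 8.83 on the cold array, a warm minus cold difference of 1.31. Myl9, a smooth muscle myosin light chain, had 8.76 on the heparin, 8.94 on the PPS, 8.31 on the warm and 9.50 on the cold array. The median of the 12 was -0.0039 in warm minus cold and -0.04 with heparin against the warm array, far from the values of Ccn1. Of the other Ccn genes, Ccn3, Ccn5 and Ccn6 were below the floor on every array. Ccn4, at 4.58 on the cold array and 4.67 on the others, was just above it.

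**Figure D4:**
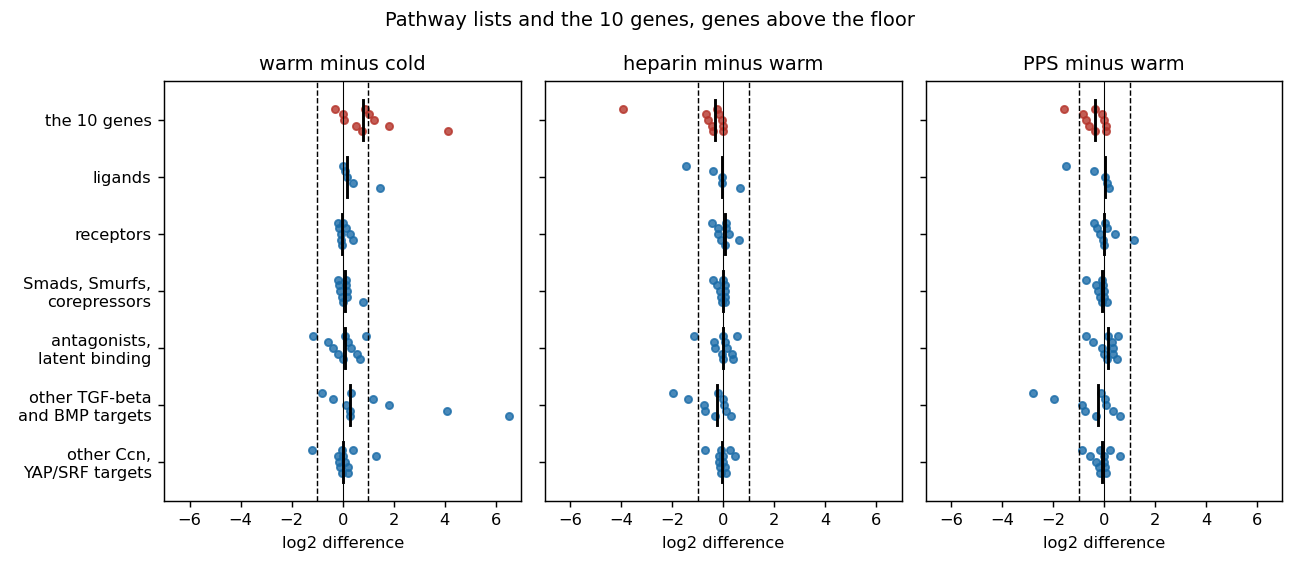
Points are log2 differences of genes above the floor, by list, with the 10 genes in the top row, a black bar at each median and dashed lines at 2-fold. In warm minus cold the median of the 10 genes is 0.81, or 0.04 with the second probe set where a gene has several. With that probe set the floor fixes Smad6 and Smad7 at 0.00. That of the other targets is 0.30 and those of the other lists lie between -0.04 and 0.15. All are as deposited and before the shift of -1.27 under poly-A scaling.

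Markers of cell types differed between the arrays too, and in bulk tissue fewer cells of a type cannot be told apart from less RNA per cell. The warm minus cold medians here are before the shift of -1.27 under poly-A scaling. Of all genes, 2.48% were higher and 1.16% lower by the size limit in that comparison. All 9 collecting duct markers above the floor had a warm minus cold difference above 0, 1 of them past the limit, with a median of 0.68 and a mean log2 level of 10.25 on the heparin, 10.32 on the PPS, 10.78 on the warm and 10.20 on the cold array. All 5 podocyte markers were above 0 as well, 2 of them past the limit, with a median of 0.95 and mean log2 levels of 9.67 on the heparin, 9.95 on the PPS, 10.12 on the warm and 9.27 on the cold array. Bmp7, a product of these cells, had its highest value on the cold array. All 7 markers of smooth muscle, pericytes and fibroblasts had a warm minus cold difference below 0, 5 of them past the limit, with mean levels of 8.17 on the heparin, 8.63 on the PPS, 7.88 on the warm and 8.93 on the cold array. Ccn2, a gene of such cells among others, was highest on the warm array, as were the mean levels of the podocyte and collecting duct markers. Endothelial markers had a median of 0.33, thick ascending limb and distal tubule markers 0.50, proximal tubule markers -0.27 and leukocyte markers 0.16. Of the red blood cell list 2 genes were above the floor. Their warm minus cold differences were opposite, with Hbb at -1.14, past the limit, and Slc4a1 at 0.57. Of the fat cell and adrenal list 1 was, Fabp4, at 0.64. The part of cell composition in the values of the 10 genes was not tested.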

How the data were processed

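RNA was measured on 4 Affymetrix rat arrays, 1 per group. Per the labels' protocols, 6 ug of RNA pooled from 3 kidneys was labelled for each. The deposited log2 values come from GCRMA, which corrects background, normalizes and summarises probes, per the submitters' processing notes, with no version named; the values run from 2.11 to 16.4 and were read as log2. GCRMA gives the arrays nearly the same distribution, so a change in total messenger RNA would not be seen.

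Of 31099 probe sets, 57 controls were left out. The platform annotation gave 1 symbol for 20826 of the others, updated by Entrez identifier to RefSeq GRCr8 for 20758 probe sets, and several symbols for 436, which were not used. Values were floored at the 50th percentile, and differences were taken between single arrays (pandas 2.3.3), with 2-fold as the limit and no test. Signal near the floor, the number of arrays and the scaling between them limit precision. The 10 genes, the pathway and marker lists and the alternatives were chosen with earlier results of these data known. All 10 genes are named; of the pathway lists, genes past the limit in warm minus cold, heparin minus warm or PPS minus warm are named, and others only where said. The 3 nearest genes are named for each of the 10 past the limit in any comparison. The calls were also run on simulated data with less noise than these arrays and planted shifts well past the limit. Such a run checks the code, not how reliable the calls are. Alternatives were the floor, the probe set, the scaling to control probe sets or to the median, and a size limit of 1.5-fold.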

Additional observations from a re-analysis of the deposited data

How the results depend on the processing

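Of 180 values, 10 genes in 6 comparisons under 3 scalings or centrings, 156 kept their direction where past the limit and their side of it. Other floors and other probe sets could not change Ccn1, Id1, Bambi, Ccn2, Id3, Tgfb1 and Bmp7, which have 1 probe set each and lie above every floor used. The second probe sets of Smad6 and Smad7 lie below the floor, which fixed their differences at 0.00. Id2 could respond, and its warm minus cold difference went from 0.88 to 0.0058 with its second probe set. Id2, Smad6 and Smad7 were within the limit from the start and stayed there under these floors and probe sets. Scaling to the poly-A controls changed the most: warm minus cold became -0.020 for Bambi, -0.25 for Ccn2 and -1.20 for Id3. Heparin minus cold became -1.17 for Ccn1, -0.21 for Id1, -1.35 for Id3 and -1.21 for Smad7, and PPS minus cold became -0.17 for Id1, -1.04 for Smad7 and -1.11 for Tgfb1. It also put past the limit Bmp7 at -1.67 in heparin, -1.39 in PPS and -1.56 in warm minus cold, Tgfb1 at -1.54 in heparin and -1.27 in warm minus cold, and Id3 at -1.20 in PPS minus cold. These shifts follow from the scaling itself, which moved the median of all genes in these comparisons by -1.27 (warm), -1.35 (heparin) and -1.18 (PPS). Against the cold array, 5 of the 10 genes were then past the limit with heparin and 5 with PPS, where 86.3% and 76.7% of all genes were lower. Scaled to the hybridisation controls, 2 were higher in warm minus cold, where 1.22% of all genes were higher and 4.53% lower. Against the cold array 0 were past the limit with heparin, where 0.76% of all genes were higher and 1.41% lower. With PPS 1 was higher than on the cold array, where 0.412% of all genes were higher and 8.07% lower. With PPS 2 were lower than on the warm array, where 0.348% of all genes were higher and 2.09% lower. Centring on the median left 1 higher with PPS against the cold array, where 0.969% of all genes were higher and 0.82% lower. Over all genes tested, poly-A scaling gave 65 higher and 7689 lower in warm minus cold, and hybridisation scaling 116 higher and 429 lower; hybridisation scaling also gave 86 higher and 85 lower with heparin against the warm array, and 142 higher and 11 lower with heparin against PPS. With a limit of 1.5-fold, 3 were higher with heparin against the cold array (3.67% of all genes), and 3 were lower with heparin (3.91%) and 4 with PPS (3.73%) against the warm array. Under every alternative run, Ccn1 passed the limit between each supplement and the warm array, and between the supplements. No paired analysis was possible because each group has 1 array.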
